A study of Mus musculus with 14 samples.

Results

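H3K4me3 regions assigned to noncoding transcripts were taken as the regions whose RefSeq identifier starts with NR_, and there were 275 of them among 14881 regions with values. They carried 252 gene symbols and 253 transcripts. Another 11113 regions were assigned to coding transcripts (NM_) and 3493 to none. Cerebral cortex was taken at 3 months of age from C57BL/6J mice and profiled by chromatin immunoprecipitation and sequencing with an antibody to H3K4me3. Mice had received nicotine or saccharin solution during development, and saccharin was the control. The groups were postnatal-only nicotine (4 libraries) against postnatal-only saccharin (4 libraries), and pre- and postnatal nicotine (3 libraries) against pre- and postnatal saccharin (3 libraries). The treatment text describes delivery to pregnant dams from conception and is worded alike for every library, so the postnatal-only course is known from the group names alone. The labels name neither sex nor the number of animals, and they do not say that libraries come from separate mice, so p-values measure the spread between samples. In whole cortex, fewer cells carrying the mark and less mark per cell cannot be told apart.

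H3K4me3 is trimethylation of lysine 4 of histone H3 and marks the starts of genes that RNA polymerase II transcribes, whether or not the RNA encodes a protein. Long noncoding RNA (lncRNA) genes can act as transcripts, as hosts that release microRNAs or small nucleolar RNAs (snoRNAs) from their introns, or through the act of transcription beside another gene. In brain, such genes include Miat, enriched in neurons, and the hosts of miR-9 and miR-124, microRNAs of neural differentiation.

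Each value is a signal, the read count of a region after the authors' adjustment with edgeR, and each exposure was adjusted in its own table. The signal of a library summed to between 2004918 and 2489860 in the postnatal table, and to between 1445810 and 2372855 in the other, and the read depth behind it is unknown. Postnatal libraries 1 and 2, and 3 and 4, of each group differed by 1.01 to 1.08 times counting noise, against 2.21 to 2.71 times for other pairs, and the mean of each close pair stands for 1 sample here. Regions with a mean above 3000 held 25.2% and 10.04% of the summed signal in the postnatal nicotine samples (1+2, 3+4), against 8.47% and 18.7% in the saccharin samples. They held 19.1%, 49.7% and 41.9% in the pre- and postnatal nicotine libraries 1, 3 and 4, against 39.9%, 28.8% and 33.1% in saccharin libraries 1, 2 and 3. None of these strongest regions was noncoding. Of marker genes, 6 of 7 for neurons, 3 of 5 for excitatory and 3 of 4 for inhibitory neurons, 2 of 6 for astrocytes, 4 of 6 for oligodendrocytes, 1 of 5 for microglia and 3 of 4 for endothelium had a region, and 0 of 6 for tissues outside the brain.

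By the current RefSeq entry, 150 of the 275 regions belonged to lncRNA genes, 85 to genes that now count as protein-coding, 32 to pseudogenes and 6 to small RNA genes. The last 2 matched no entry, and one of them carries a symbol that a spreadsheet turned into a date (6-Sep). The 85 regions are an NR_ variant of a coding gene (Dtnb, Srsf3) or a transcript later found to encode a protein, such as 1500011K16Rik, now Mtln, which encodes a micropeptide of mitochondria. 128 regions had RIKEN clone names, and 34 had names of predicted or EST-derived genes. 19 symbols had more than 1 region, 42 regions in all. For 4 regions (Gm12191, Gm10052, BC002163 and Nutf2-ps1) the current entry is on another chromosome than the region, so their assignment is uncertain. Chromosome X held 17 noncoding regions (6.18%), against 3.11% of coding regions, and chromosome 17 held 21 (7.64%), against 4.43%.

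The starts of snoRNA hosts are shown first because these genes are known for a run of pyrimidines (C and T) at the first bases of the RNA. Sequences are from RefSeq, build GRCm38.p6, 40 bases before and 30 after each start, and capitals mark an unbroken run of C and T from the first base. The signal regions are on build mm9, so overlap of region and start was not computed.
Gas5, downstream start (chr1:161035126-161035195, plus strand): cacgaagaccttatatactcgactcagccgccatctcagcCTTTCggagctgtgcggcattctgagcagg
Snhg12 (chr4:132308638-132308707, plus strand): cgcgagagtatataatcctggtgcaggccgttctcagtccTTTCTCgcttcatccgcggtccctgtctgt
Snhg7 (chr2:26640215-26640284, minus strand): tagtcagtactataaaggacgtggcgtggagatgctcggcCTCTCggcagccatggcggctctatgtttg
Snhg17, second start (chr2:158361480-158361549, minus strand): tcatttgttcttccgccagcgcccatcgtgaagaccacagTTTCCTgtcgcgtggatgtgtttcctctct
Gas5, upstream start (chr1:161034561-161034630, plus strand): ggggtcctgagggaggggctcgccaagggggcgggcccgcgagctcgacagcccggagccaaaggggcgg
Snhg3 (chr4:132353657-132353726, minus strand): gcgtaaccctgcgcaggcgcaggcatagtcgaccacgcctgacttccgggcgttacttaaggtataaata
Of 10 listed starts of 8 hosts, 4 began with a run of at least 5 pyrimidines, against 13 of 243 starts of all noncoding members (5.35%) and 1457 of all 32851 starts in the table (4.44%). The upstream start of Gas5, the first start of Snhg17 and the starts of Snhg3, Snhg16, Snhg20 and Dancr held no such run. Of these, only those of Gas5 and Snhg3 are shown. Snhg6, also a host with a region, was not among those 8 hosts. The pyrimidine run was chosen as a feature after the sequences were seen.

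Full promoters, 250 bases before to 50 after the start, are shown for 4 lncRNA genes with data described below: Miat as a brain transcript, Dleu2 as a microRNA host with a strong region, Dubr as a gene lower in nicotine samples of both exposures, and 1700034H15Rik, among the strongest noncoding regions. Capitals mark matches on either strand to any of 7 motifs: TATAAA of the TATA box, CCAAT of the CAAT box, GGGCGG of the GC box, the cAMP response element TGACGTCA, the ETS factor core CCGGAAG, the NRF1 palindrome and the CGCG-box palindrome.
Miat (chr5:112228899-112229198, minus strand): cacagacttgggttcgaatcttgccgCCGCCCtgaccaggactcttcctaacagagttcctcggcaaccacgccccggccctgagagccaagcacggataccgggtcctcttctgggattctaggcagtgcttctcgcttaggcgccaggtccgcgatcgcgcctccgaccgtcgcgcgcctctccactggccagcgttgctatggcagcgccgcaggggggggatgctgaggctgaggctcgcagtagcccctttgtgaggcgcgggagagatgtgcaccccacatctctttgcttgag
Dleu2 (chr14:61682324-61682623, minus strand): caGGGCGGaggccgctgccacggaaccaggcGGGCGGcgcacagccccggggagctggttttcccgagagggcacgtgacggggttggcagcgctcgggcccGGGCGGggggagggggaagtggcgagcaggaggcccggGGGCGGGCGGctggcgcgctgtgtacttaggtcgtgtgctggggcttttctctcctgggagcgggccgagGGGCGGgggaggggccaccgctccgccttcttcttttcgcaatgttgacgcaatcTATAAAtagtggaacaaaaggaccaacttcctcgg
Dubr (5330426P16Rik) (chr16:50732724-50733023, minus strand): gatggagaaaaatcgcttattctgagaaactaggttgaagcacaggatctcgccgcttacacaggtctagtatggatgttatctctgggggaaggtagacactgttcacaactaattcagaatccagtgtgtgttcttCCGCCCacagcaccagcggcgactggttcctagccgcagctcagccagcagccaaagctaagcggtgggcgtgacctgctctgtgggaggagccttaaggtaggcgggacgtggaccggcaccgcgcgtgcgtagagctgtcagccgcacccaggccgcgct
1700034H15Rik (chr1:191907478-191907777, minus strand): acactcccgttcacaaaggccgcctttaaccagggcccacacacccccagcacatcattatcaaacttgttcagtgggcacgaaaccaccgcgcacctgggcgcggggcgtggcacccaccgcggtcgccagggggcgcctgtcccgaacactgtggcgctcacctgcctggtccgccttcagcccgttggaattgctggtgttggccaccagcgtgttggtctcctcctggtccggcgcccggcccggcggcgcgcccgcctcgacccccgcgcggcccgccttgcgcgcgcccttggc
The Dleu2 window held 6 matches to GGGCGG, 2 of which overlap, and a TATAAA that starts 16 bases into the transcript. The Miat and Dubr windows held 1 GGGCGG each, on the reverse strand. The 1700034H15Rik window held none of the 7 motifs and 33 CG dinucleotides, against 25 for Miat, 29 for Dleu2 and 19 for Dubr. Of the genes of NR_ regions, 142 had a single listed start, 100 of them lncRNA genes and 42 genes now counted as coding. GGGCGG was found in 57.7% of the 142 (56 of 100 and 26 of 42), against 69.5% of genes with an NM_ region and 35.2% of all promoters. CCAAT was found in 39.4%, against 39.1% and 38.2%, and TATAAA in 10.6%, against 6.89% and 14.8%. The ETS core was in 12.7% of the 142, against 17.6% of genes with an NM_ region and 9.12% of all promoters. The cAMP response element was in 1.41%, against 3.61% and 1.85%, the NRF1 palindrome in 1.41%, against 2.12% and 0.949%, and the CGCG-box palindrome in 0.704%, against 1.18% and 0.490%.

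5 lncRNA genes with regions span microRNA hairpins on their own strand that are well studied. Their mature sequences are given with the seed, bases 2 to 8, in capitals, since the seed decides which targets a microRNA pairs with.
mmu-miR-29b-3p: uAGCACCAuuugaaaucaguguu
mmu-miR-29c-3p: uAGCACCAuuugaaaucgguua
mmu-miR-16-5p: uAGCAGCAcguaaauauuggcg
mmu-miR-22-3p: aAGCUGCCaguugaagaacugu
mmu-miR-9-5p: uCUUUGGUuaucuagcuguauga
mmu-miR-374b-5p: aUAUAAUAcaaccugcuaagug
miR-29b and miR-29c, both within A330023F24Rik, share the seed AGCACCA, and the other 4 shown each have a seed of their own. miR-16 lies within Dleu2, miR-22 within 2210403K04Rik (Mir22hg), miR-9 within C130071C03Rik and miR-374b within B230206F22Rik (Ftx). No hairpin was listed within 2610100L16Rik (Mir124-2hg) or 2810055G20Rik (Mir99ahg).

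Noncoding regions carried less H3K4me3 than coding regions. Their median signal was 61.2 in the postnatal table and 43.9 in the pre- and postnatal table, against 95.6 and 60.7 for coding regions. Per kb of region, the medians were 42.4 and 27.6, against 56.5 and 35.4. The ratio of both medians per kb was below 1 in every sample: 0.732 and 0.686 in the postnatal nicotine samples, against 0.731 and 0.786 in the saccharin samples, and 0.758, 0.816 and 0.853 in the pre- and postnatal nicotine libraries, against 0.832, 0.828 and 0.798 in the saccharin libraries. Nicotine and saccharin samples overlap in this ratio. 94 of 275 noncoding regions (34.2%) lay above the median coding region in the postnatal table and 98 (35.6%) in the pre- and postnatal table. These levels are a description of shared samples, with no test.

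The difference from coding regions lay with some kinds of noncoding transcript. Per kb, lncRNA genes had a median of 34.5 in the postnatal table, small RNA genes 34.9 and pseudogenes 42.3. Genes now counted as coding had 58.7, beside 56.5 for coding transcripts. In the pre- and postnatal table the order was lncRNA genes (25.5), small RNA genes (25.8), pseudogenes (30.6) and genes now counted as coding (36.1), beside 35.4 for coding transcripts. Neighbouring values in this order, lncRNA and small RNA genes, overlap between samples: lncRNA medians were 33.6 to 38.2 over the postnatal samples, and small RNA medians 30.9 to 38.4. Over the pre- and postnatal libraries pseudogenes overlapped both. Their medians were 23.6 to 32.6, against 23.6 to 28.4 for lncRNA genes and 20.5 to 26.8 for small RNA genes.

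**Figure D1:**
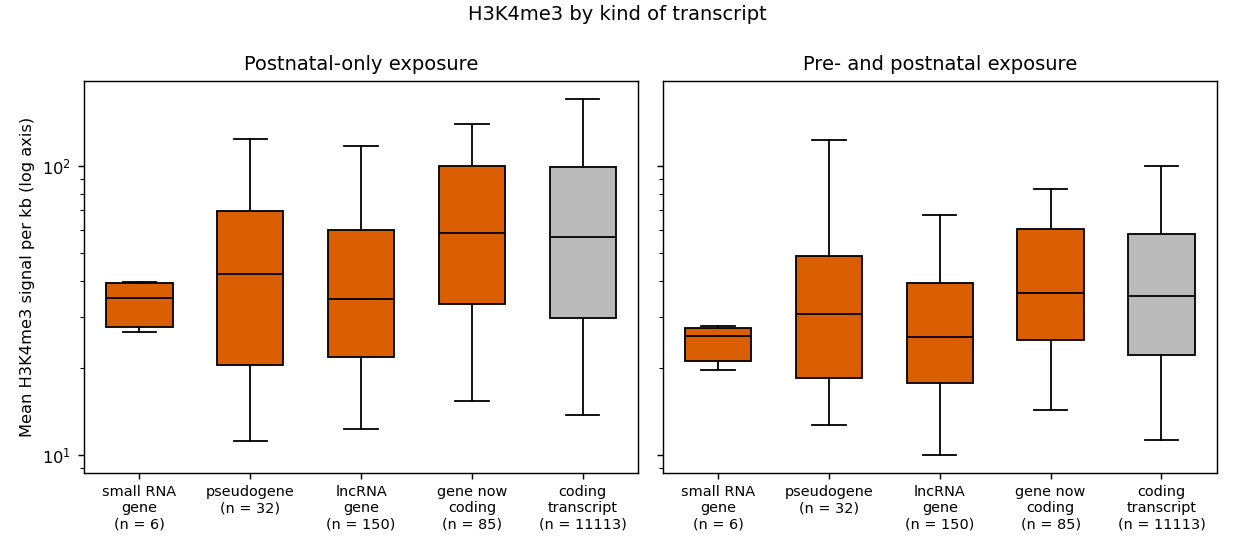
Mean H3K4me3 signal per kb of region (log axis) for each kind of noncoding region and for coding regions, in both tables; boxes span the quartiles with the median as a line, and whiskers the 5th to 95th percentiles over regions. Medians of lncRNA genes (34.5 and 25.5) lie below those of coding transcripts (56.5 and 35.4), and genes now counted as coding (58.7 and 36.1) lie beside them. The 2 regions that matched no entry are not drawn.

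Noncoding regions were 663 to 3908 bp wide, with a median of 1481 bp, against 1629 bp for coding regions. Width and signal rose together across the 275 regions (Pearson r of both logs 0.75, against 0.78 across coding regions). This is a description: the same reads decide a region's extent and its signal. The widest were Phf21b (3908 bp), Gt(ROSA)26Sor (3541 bp) and Prr3 (3224 bp). Gt(ROSA)26Sor, at chr6:113025445-113028986 (mm9), is the ROSA26 locus, used for ubiquitous transgene expression, and had a mean signal of 286 ± 15.2 in the postnatal table (SD, n = 4 samples). The narrowest were Cyp2c53-ps (663 bp), 2900097C17Rik (Norad, 665 bp) and 2410018L13Rik (719 bp). Norad, which binds Pumilio proteins, stood out among narrow regions with 88.2 ± 9.02, against 7.19 ± 2.14 for Cyp2c53-ps and 9.04 ± 1.37 for 2410018L13Rik (SD, n = 4).

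**Figure D2:**
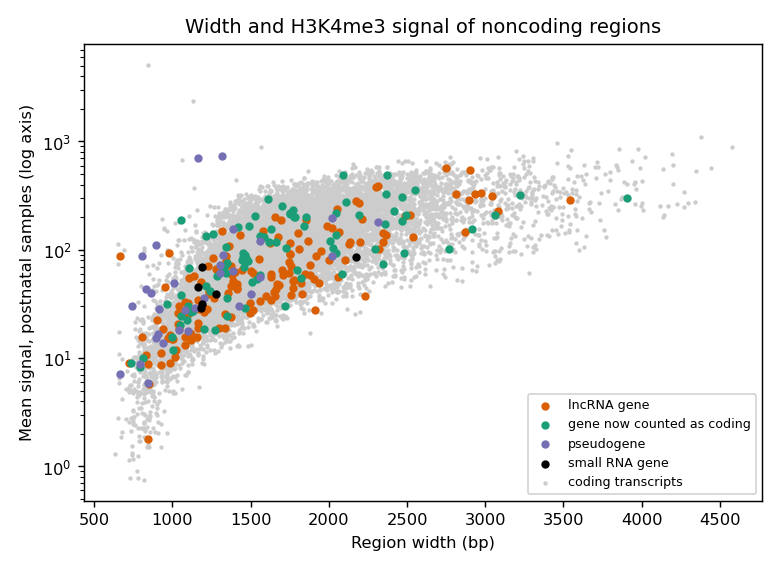
Region width (bp) against mean signal of the postnatal samples (log axis) for 4 kinds of noncoding region and, in grey, coding regions; each point is a region. Noncoding regions follow the coding ones, and the 2 pseudogene regions near the top are the copies of 6820431F20Rik, with 702 and 740.2.

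The strongest noncoding signal lay at both regions of 6820431F20Rik, a transcribed pseudogene annotated at more than 1 place on chromosome 8. The region at chr8:20019512-20020830 (mm9) had 694 and 834 in postnatal nicotine samples, against 745 and 688 in saccharin samples, and the region at chr8:19892189-19893349 had 626 and 790, against 749.5 and 642. Nicotine and saccharin values overlap in both. The level per kb, 562 and 605, was the highest of any noncoding region, but reads from near-identical copies could be split between them, so these levels are uncertain.

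Next in signal came other transcripts, whose copy number was not examined. The lncRNA 4931440P22Rik (chr3:65331278-65334025) had 602 in both postnatal nicotine samples, against 576 and 482 in saccharin samples, so that nicotine was higher without overlap. In the pre- and postnatal table it had 327, 247 and 269 in nicotine libraries, against 261, 312 and 336 in saccharin libraries, where the groups overlap. 1700034H15Rik (chr1:193729518-193732421) had 564 and 575 in postnatal nicotine samples, against 552 and 486 in saccharin samples. It had 323, 358 and 319 in pre- and postnatal nicotine libraries, against 340.2, 351 and 358 in saccharin libraries. Its start faces that of Slc30a1, a zinc exporter, on the opposite strand. Yaf2, a partner of Polycomb RING1 proteins, averaged 494 ± 49.3 over the postnatal samples (SD, n = 4) and 291 ± 29.2 over the pre- and postnatal libraries (SD, n = 6). 5430417L22Rik (Inafm2) averaged 485 ± 42.8 and 238 ± 19.6, and the lncRNAs Gm10638 and U05342 averaged 389.9 ± 30.9 and 378 ± 24.2 in the postnatal table. The order of noncoding regions by mean signal was much alike in both tables (Spearman rho 0.95, n = 275 regions), which share the peak set and tissue.

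snoRNA hosts make spliced RNAs whose introns release snoRNAs, the guides of ribosomal RNA modification. 9 of 20 listed hosts had a region. Gas5, a host linked to growth arrest, was the strongest at chr1:162963938-162967020 (mm9). It had 233 and 239.8 in postnatal nicotine samples, against 214 and 236 in saccharin samples, and 156, 157 and 124 in pre- and postnatal nicotine libraries, against 138, 179 and 159.9 in saccharin libraries. Groups overlap in both exposures, and the Gas5 start faces that of Zbtb37, a zinc finger gene. 2700023E23Rik (Dancr) followed with 151 and 165 in postnatal nicotine samples, against 153 and 133 in saccharin samples, and with 79.7, 51.6 and 68.7 in pre- and postnatal nicotine libraries, against 54.2, 72.8 and 92.2. Per kb Dancr (114) lay above Gas5 (74.8) in the postnatal table. Snhg3, Snhg6 and 2810008D09Rik (Snhg20) averaged 87.3 ± 7.96, 78.6 ± 8.69 and 60.6 ± 4.48 (SD, n = 4), and 9430008C03Rik (Snhg17), 1810032O08Rik (Snhg16), Snhg12 and Snhg7 lay at 39.8, 37.2, 32.7 and 30.4. Only Gas5 and Dancr exceeded the median coding region in both tables.

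Of lncRNAs known from brain, 6 of 17 listed genes had a region, and 1 was above the median coding region. C130071C03Rik, the host of miR-9, had 161 and 141 in postnatal nicotine samples, against 165 and 124 in saccharin samples, and 79.6, 86.5 and 64.7 in pre- and postnatal nicotine libraries, against 59.4, 91.7 and 73.6. Miat had 81.2 and 67.2 in postnatal nicotine samples, against 90.4 and 80.4 in saccharin samples. 2610017I09Rik (Pantr1), which lies beside the neural factor gene Pou3f3, averaged 51.3 ± 7.10 in the postnatal table, and Dlx6os1, of developing interneurons, 36.3 ± 5.51 (SD, n = 4). Sox2ot, transcribed across the Sox2 locus, and Rmst, a neurogenesis transcript, were low at 15.6 ± 4.28 and 8.87 ± 3.75.

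The other microRNA hosts ranged widely about the noncoding median of 61.2. 2210403K04Rik (Mir22hg) averaged 71.7 ± 7.60 in the postnatal table and A330023F24Rik, which carries the miR-29 pair, 49.6 ± 13.2 (SD, n = 4). The 2 regions of 2610100L16Rik (Mir124-2hg) had 32.6 ± 7.41 and 38.8 ± 3.70, and 2810055G20Rik (Mir99ahg) had 15.2 ± 5.51. Dleu2, the host of miR-16, had 1 strong region (326 ± 5.30, width 2935 bp) and 1 weaker (159 ± 5.37, width 2020 bp).

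Transcripts of the X inactivation centre had modest signal. Xist, which coats the inactive X chromosome, had 47.6 and 24.7 in postnatal nicotine samples, against 32.0 and 49.6 in saccharin samples. It had 46.4, 56.6 and 59.9 in pre- and postnatal nicotine libraries, against 40.6, 66.5 and 29.5 in saccharin libraries. Both exposures overlap, and the sex of the mice is not in the labels. 2010000I03Rik (Jpx), an activator of Xist, averaged 48.4 ± 7.06 (SD, n = 4) and the 3 regions of B230206F22Rik (Ftx) 13.3 to 18.99 in the postnatal table. Among other broadly expressed transcripts, 6720401G13Rik (Firre), a nuclear RNA, averaged 18.8 ± 8.69 in that table (SD, n = 4). There 1700020I14Rik (Oip5os1), known for its pairing with miR-7, averaged 130.5 ± 15.7 and Pvt1, beside Myc, 51.0 ± 6.77 (SD, n = 4).

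6 regions belonged to small structured RNA genes. Snord123, a snoRNA, averaged 85.7 ± 12.9 in the postnatal table, Scarna2, a Cajal body RNA, 68.9 ± 5.52, and Terc, the RNA of telomerase, 45.3 ± 3.73 (SD, n = 4). Rnu7, the U7 RNA of histone messenger RNA processing, had 39.4 ± 8.65, and the snoRNAs Snora78 and Snora24 had 31.5 ± 4.23 and 28.8 ± 9.17. None of the 6 exceeded the median coding region in either table. No NR_ row with values named any of the 10 listed imprinted noncoding transcripts, and rows without values were not read.

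lncRNA genes often started close to a coding gene on the other strand. Of 110 lncRNA genes with a listed start, 26 (23.6%) had a coding start within 1 kb on the opposite strand, against 685 of 8206 coding genes (8.35%). The 28 regions of these lncRNA genes had a median signal of 115 in the postnatal table and 68.0 in the pre- and postnatal table, against 45.8 and 34.6 for the 94 regions of the others. They were wider, with a median of 1765 bp against 1406 bp. Beside 1700034H15Rik and Gas5, the pairs with strong signal were U05342 with Lpxn (378), A630072M18Rik with Rsbn1l (330.2), D330050I16Rik with Sart1 (283), 2310068J16Rik with Larp4 (239) and BC037032 with Oxct1 (208), all as postnatal means. 2900079G21Rik, opposite Arpp21, a phosphoprotein gene of cortex and striatum, had 132 and 89.9 in the postnatal and the pre- and postnatal table. The weakest were 4930441O14Rik (18.7), opposite Zfp65, and D730005E14Rik (11.2), opposite Apobec3. Whether a region of this kind spans both starts was not computed, and where it does, these values cannot separate their reads. Rows without values that repeat a region's coordinates were not read for a coding transcript of the same region. Among genes now counted as coding the order was the other way: the 15 regions with an opposite coding start had a postnatal median of 84.5, against 97.8 for the 62 without one.

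**Figure D3:**
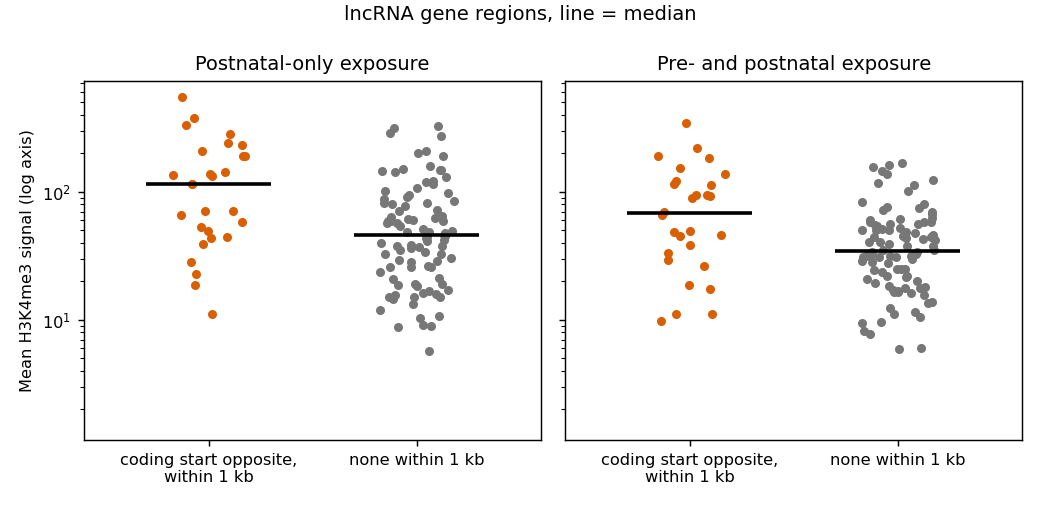
Mean signal (log axis) of lncRNA gene regions whose gene has a coding start on the opposite strand within 1 kb, beside those without one, in both tables; each point is a region and the line is the median. The medians are 115 and 45.8 in the postnatal table, and 68.0 and 34.6 in the pre- and postnatal table, with wide overlap.

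Promoters rich in CG dinucleotides carried more signal. Of the 142 genes with a single listed start, 91 (64.1%) had an observed over expected CG ratio above 0.6, against 77.8% of genes with an NM_ region and 35.7% of all promoters. They were 64 of the 100 lncRNA genes and 27 of the 42 genes now counted as coding. For genes with 1 region, 84 above that ratio had a median signal of 84.6 in the postnatal and 52.3 in the pre- and postnatal table, against 46.3 and 35.0 for 49 below it. Of these, the lncRNA genes alone had 70.4 and 48.1 for 57 above it, against 43.5 and 33.1 for 34 below it. Coding regions showed the same order, with 123 above against 51.0 below in the postnatal table. These signals are summed over the region. Among noncoding regions, the 84 above the ratio were also wider, with a median of 1630.5 bp against 1372 bp for the 49 below it. Across the 133 noncoding regions the rank correlation of the CG ratio with signal per kb was 0.37 in the postnatal and 0.39 in the pre- and postnatal table, as a description.

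No noncoding region passed the test for a difference between nicotine and saccharin in either exposure. All 275 regions were tested, within a fit of every region with limma and Benjamini-Hochberg adjustment. After postnatal exposure 0 of 275 passed an adjusted p of 0.05, beside 0% of 14873 regions, and the lowest adjusted p was 1.00. At an unadjusted p of 0.05, 4 of 275 passed (2 higher, 2 lower), or 1.45%, beside 1.89% of all regions (0.961% higher, 0.928% lower). After pre- and postnatal exposure 0 of 275 passed, beside 0% of 14879 regions, and the lowest adjusted p was 0.987. There 6 passed an unadjusted p of 0.05, all lower in nicotine, or 2.18%, beside 3.59% of all regions (1.72% higher, 1.87% lower). The median difference of noncoding regions, nicotine minus saccharin on the log2 scale of signal + 1, was -0.02 in both tables, beside -0.00 and 0.00 for all regions. The median 95% interval of a noncoding region reached 0.46 (1.38-fold) to either side in the postnatal table and 0.59 (1.51-fold) in the other.

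Samples of both groups did not overlap for 61 noncoding regions in the postnatal table (32 higher and 29 lower in nicotine), or 22.2%, beside 29.1% of all regions (15% higher, 14% lower) with 2 samples a group. In the pre- and postnatal table this held for 21 (4 higher, 17 lower), or 7.64%, beside 8.95% of all regions (4.49% higher, 4.46% lower). The 17 lower are 6.18% of noncoding regions and the 4 higher 1.45%. lncRNA genes were higher in nicotine for 57 and lower for 93 of 150 regions in the postnatal table (median -0.05), and higher for 68 and lower for 82 in the other (median -0.04). All regions divided into 7301 higher and 7572 lower, then 7513 and 7366. The lncRNA split was 64 and 86 after quantile normalization of the postnatal table, and 74 and 76 without pre- and postnatal nicotine library 1. Regions share samples and are not replicates, so these splits were not tested. Genes now counted as coding were evenly divided, with 44 higher and 41 lower, then 42 and 43. Of the 9 snoRNA hosts, 3 were higher and 6 lower after postnatal exposure (median -0.05, or 0.01 with 5 higher and 4 lower after quantile normalization, and 0.04 without saccharin sample 3+4). After pre- and postnatal exposure 1 was higher and 8 lower, with a median of -0.22, or -0.04 without nicotine library 3, and 0 of 9 had an unadjusted p under 0.05.

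Of the 6 noncoding regions higher after postnatal nicotine at the lowest p, 4 belonged to genes now counted as coding. A narrow region of Zc3h7a, a zinc finger gene, at chr16:11143691-11144744 (mm9), had 253 and 188 in nicotine samples, against 137 and 171 in saccharin samples. Nicotine was higher without overlap, by 0.51 on the log2 scale (SE 0.15, limma, unadjusted p = 0.00282, adjusted p = 1.00). Its highest and lowest samples were also those with the largest and smallest share of signal in the strongest regions (25.2% and 8.47%), the other two were in the opposite order, and the part of that share in the result was not tested. The wider region of Zc3h7a had 309 and 331, against 305 and 295. After pre- and postnatal exposure the narrow region had 86.1, 153 and 114, against 207, 82.4 and 131, which overlap.

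Ngrn, which encodes a protein of mitochondrial ribosome assembly, had 90.6 and 102 in nicotine samples, against 74.1 and 74.6 in saccharin samples. The groups are apart by 0.36 (SE 0.17, limma, unadjusted p = 0.0464, adjusted p = 1.00). Dtnb, a dystrophin-associated protein gene, had 359 and 341, against 318 and 292 (difference 0.20), and Yaf2 541 and 517, against 494 and 426 (0.20). The pseudogene Gm13238 had 47.4 and 53.0, against 25.8 and 46.5 (0.52), and the lncRNA F930015N05Rik 124 and 133, against 100.2 and 116 (0.25). Nicotine samples were the higher in each, with an unadjusted p above 0.05 in these 4.

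On the lower side, Mtln (1500011K16Rik) had 26.3 and 32.0 in nicotine samples, against 41.1 and 52.7 in saccharin samples. Nicotine was lower without overlap, with a difference of -0.66 (SE 0.29, limma, unadjusted p = 0.0337, adjusted p = 1.00). A030009H04Rik (Rnf227) had 78.7 and 82.1, against 98.0 and 109, a difference of -0.36 (SE 0.16, limma, unadjusted p = 0.0412, adjusted p = 1.00). Dubr, an lncRNA of muscle differentiation in mouse, had 45.6 and 30.9, against 49.0 and 64.1 (-0.57, limma, unadjusted p = 0.0504). 9330020H09Rik, opposite the Ccnt1 start, had 112 and 136, against 149 and 147 (-0.26), Snord123 78.5 and 74.7, against 85.9 and 104 (-0.30), and 5430416N02Rik 22.5 and 17.1, against 24.1 and 39.7 (-0.63). Nicotine and saccharin samples are apart in all 6.

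After pre- and postnatal exposure the 6 regions with an unadjusted p under 0.05 were mostly weak. AU015836, an X-linked lncRNA gene, was listed at 0, 0.109 and 0.985 in nicotine libraries, against 15.5, 5.54 and 6.21 in saccharin libraries. The fitted difference of -2.82 rests on the pseudocount of 1, since nicotine values are near 0, and in the postnatal table the region had 3.33 and 0.00385, against 2.06 and 1.80. Gm13238 had 17.9, 40.9 and 18.6, against 74.7, 36.0 and 43.1, which overlap (-0.997, SE 0.35, limma, unadjusted p = 0.0103, adjusted p = 0.987). 1700030C10Rik had 23.7, 25.5 and 14.7, against 43.6, 37.1 and 33.9, and lies apart (-0.84, SE 0.34, limma, unadjusted p = 0.0201, adjusted p = 0.987). AA388235 (4.67, 12.5 and 8.84, against 20.8, 15.0 and 20.2) and Kis2 (8.57, 5.32 and 4.90, against 17.6, 11.1 and 16.1) were also lower without overlap, with differences of -1.10 and -1.14.

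Dubr was the one region among the 6 of lowest p on the lower side in both exposures. At chr16:50731965-50733648 (mm9) it had 19.8, 27.2 and 27.5 in pre- and postnatal nicotine libraries, against 44.7, 35.6 and 42.3 in saccharin libraries. Nicotine libraries were lower without overlap, with a difference of -0.70 (SE 0.31, limma, unadjusted p = 0.0322, adjusted p = 0.987). 4833422C13Rik, AA388235 and Gm3893 were likewise lower without overlap in both exposures, which makes 4 of 275 noncoding regions (1.45%), beside 0.679% of 14871 regions. None of the 275 was higher without overlap in both, beside 0.935% of all regions. These 4 regions were picked out after their values were seen, and each exposure had its own saccharin controls.

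The 6 highest differences by p after pre- and postnatal exposure had an unadjusted p above 0.05. The weaker Dleu2 region had 88.0, 127 and 128 in nicotine libraries, against 67.7, 97.9 and 95.2 in saccharin libraries (0.39). Miat had 53.9, 68.2 and 70.7, against 63.3, 34.5 and 43.1 (0.48). In both, the lowest nicotine library lies within the saccharin range. Pvt1 had 33.1, 36.6 and 58.9, against 32.2, 28.4 and 24.3 (0.55), and Rai12 (Elp5, of the Elongator complex) 142, 131 and 166, against 119.6, 119.5 and 119 (0.29), and these groups are apart. Suv39h2, a histone H3 lysine 9 methyltransferase gene, had 162, 189 and 209, against 142, 150.0 and 165 (0.28), and the splicing factor gene Srsf3 72.8, 83.8 and 147, against 75.9, 80.6 and 60.6 (0.42), with overlap.

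**Figure D4:**
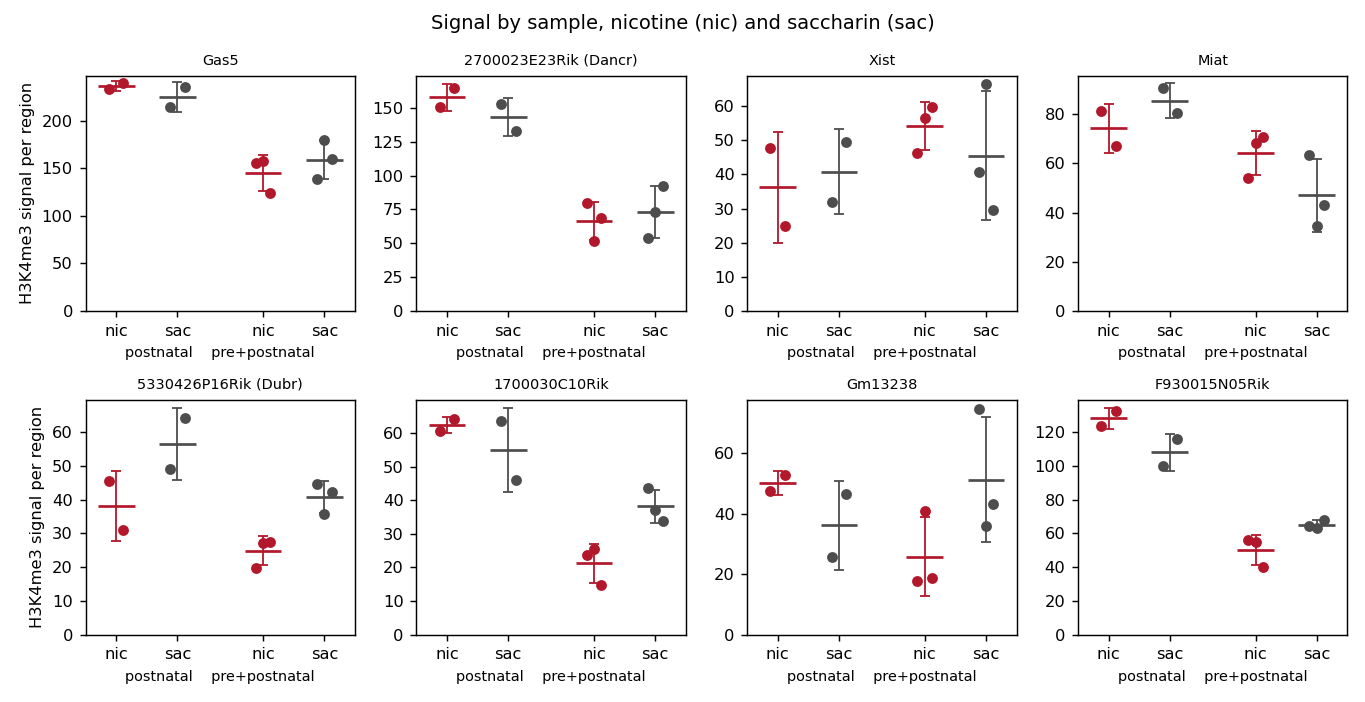
Signal per region in each sample for 8 noncoding transcripts, nicotine (nic) left of saccharin (sac) in each exposure; points are samples (2 averaged postnatal samples, 3 pre- and postnatal libraries a group), the bar is the mean and the whisker the SD. Dubr is lower in nicotine in both exposures (45.6 and 30.9, against 49.0 and 64.1; then 19.8, 27.2 and 27.5, against 44.7, 35.6 and 42.3), while Gas5, Dancr and Xist overlap.

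Among noncoding regions with a mean above 100, those that varied most over samples were the same 3 in both tables: Pisd-ps1, the widest Pisd-ps2 region and the narrow Zc3h7a region. The first pair are pseudogenes of Pisd, the phosphatidylserine decarboxylase gene. The widest Pisd-ps2 region (chr17:3081052-3083366, mm9) had 146, 343 and 283 in pre- and postnatal nicotine libraries, against 481, 149 and 149.7 in saccharin libraries. Pisd-ps1 on chromosome 11 had 107, 276 and 182, against 354, 113 and 112. In both, saccharin library 1 was the highest, nicotine library 3 came next and nicotine library 1 was lowest. After postnatal exposure Pisd-ps1 had 171 and 78.4 in nicotine samples, against 89.0 and 147 in saccharin samples. The share of the regions with a postnatal mean above 3000 was 19.1%, 49.7% and 41.9% in the pre- and postnatal nicotine libraries. It was 39.9%, 28.8% and 33.1% in the saccharin libraries. That share was highest in nicotine library 3, the Pisd values in saccharin library 1, and both were lowest in nicotine library 1. In the postnatal table the share was 25.2% and 10.04% in nicotine samples, against 8.47% and 18.7% in saccharin samples. The part of this share in the Pisd values was not tested. Reads of near-identical copies of Pisd could be split between the Pisd regions, so their values are uncertain.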

How the data were processed

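H3K4me3 was profiled in 14 libraries of mouse cerebral cortex. The authors deposited 1 table per exposure with a signal per library and region on build mm9: read counts adjusted with edgeR, per the file headers and the submitters' processing notes. Aligner and peak caller: not given in the sources used here. Rows without values (4322 of 19203) repeated other coordinates and were left out, and any transcripts they name were not read. Counts of listed genes with a region therefore rest on rows with values alone. NR_ rows were matched to RefSeq (GRCm38.p6) by accession (232), symbol (26) or older symbol (15), for names and sequences alone. Within each table, log2(signal + 1) was fitted with limma 3.58.1 (trend, R 4.3.3, two-sided) keeping regions that reach 1 in as many samples as the smaller group has, and p-values were adjusted over all of them (Benjamini-Hochberg). The fit was tested on simulated data. Averaging postnatal library pairs was decided from earlier results of these data. The members, gene lists and the naming rule (6 regions with the lowest p per exposure and direction, the 12 strongest per table, the 3 widest and narrowest, and list members) were chosen with earlier results of these data known. Same-numbered libraries did not deviate together (correlation -0.46 postnatal, -0.11 and -0.10 pre- and postnatal), so numbers were not used as pairs. With 2 postnatal samples a group, -0.46 also means that differently numbered samples deviated together. These were nicotine 1+2 with saccharin 3+4, and nicotine 3+4 with saccharin 1+2. The crossed replicate block, an alternative, pairs the samples in that way, and the main fit leaves this shared deviation in. Depth is unknown, so no counting interval is given. Alternatives changed the pseudocount, filter, scaling, blocks and libraries. Medians, counts and promoter features were computed with pandas 2.3.3 in Python 3.11.15, and figures with matplotlib 3.10.9.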

Additional observations from a re-analysis of the deposited data

Results flagged for a closer look

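The lncRNA F930015N05Rik (chr11:64248342-64250478, mm9) moved in opposite directions in the exposures, with no overlap in either. After postnatal exposure it had 124 and 133 in nicotine samples, against 100.2 and 116 in saccharin samples, a log2 difference of 0.25. After pre- and postnatal exposure it had 56.0, 55.2 and 40.2 in nicotine libraries, against 64.5, 63.2 and 68.2 in saccharin libraries, a difference of -0.38. Neither difference passed limma's test (unadjusted p = 0.102 and 0.112), and the difference between the exposures was not tested, since each table was adjusted on its own.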

How the results depend on the processing

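All 25 log2 differences named kept their direction under every alternative run, but 13 became over 1.5 times smaller with 1 sample left out. After postnatal exposure these were Gm13238 (0.11 without saccharin 1+2), F930015N05Rik (0.15 without saccharin 1+2), Yaf2, Snord123 and 5430416N02Rik (0.10, -0.16 and -0.28 without saccharin 3+4), Dubr (5330426P16Rik, -0.29 without nicotine 3+4), 9330020H09Rik and Zc3h7a (-0.12 and 0.30 without nicotine 1+2). After pre- and postnatal exposure they were Srsf3, Pvt1 and F930015N05Rik (0.12, 0.30 and -0.23 without nicotine 4), Dleu2 (0.22 without saccharin 1) and Miat (0.28 without saccharin 2). A postnatal fit with a sample left out keeps 1 sample in that group, so its p-values rest on the other group's spread. For those fits only differences are given. In the remaining fits only Zc3h7a passed the adjusted p of 0.05 among them, when the replicate block was crossed. That fit holds 4 samples and a block term, so little is left to measure spread from. Counts of called noncoding regions were 1 (Zc3h7a) with the crossed replicate block, of 9 among all regions. They were 0 under all others of these fits, pre- and postnatal included, where 17 of all regions passed without nicotine 1. Noncoding regions with an unadjusted p under 0.05 were 21 with 8 libraries (beside 9.25% of all regions), 1 with the replicate block (0.928%) and 17 with the crossed block (7.15%). In the pre- and postnatal table they were 4 with the replicate block (1.91%), and 3 to 27 with a library left out (27 without nicotine 1, beside 11.4% of all regions; 3 without saccharin 3, beside 2.37%). The cause was not tested. The level of noncoding over coding regions per kb averaged 0.734 postnatal and 0.814 pre- and postnatal. It was 0.659 and 0.722 as signal not divided by width, and 0.639 and 0.723 without genes now counted as coding, 2 alternatives chosen after seeing the data. The lncRNA median stayed below 0 in both tables under each alternative. It reached -0.03 without postnatal saccharin 3+4 and -0.003 without pre- and postnatal nicotine 1. The median of all noncoding regions turned to 0.01 without postnatal nicotine 3+4, and 0.01 without pre- and postnatal nicotine 1. Unknown depth and 2 or 3 samples a group limit what could be detected.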
